A study of Danio rerio with 6 samples.

Results

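The epicardial identity genes of the zebrafish heart, tcf21, tbx18, wt1a, wt1b, podxl, jam2b, tgm2b, hyal2b, adma and gpm6aa, were examined in cells sorted from regenerating and uninjured ventricles. They were chosen by symbol, and each of the 10 symbols occurred on 1 of the 25089 rows of the gene table. RNA sequencing covered 6 libraries, 3 from hearts regenerating 5 days after resection of the ventricular apex and 3 from uninjured hearts. Both groups carried the Gata4:GFP reporter, came from the ventricle apex and were described by the submitters as purified cardiomyocytes. According to the labels' protocol, injury tissue was cleared from the apexes before they were dissociated and sorted by fluorescence. Whether the libraries stem from separate animals or from pools is not stated, so p-values reflect how much these libraries vary, and that variation may be technical.

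The epicardium is the mesothelial sheet that covers the heart. After injury of the zebrafish heart it is known to reactivate developmental genes, to proliferate, to secrete signals and matrix, and to give rise to fibroblasts and mural cells. Among its best known genes are those for the transcription factors Tcf21, Tbx18 and Wt1. The other 6 genes encode surface proteins (podxl, jam2b, gpm6aa), enzymes that act on proteins or on hyaluronan (tgm2b, hyal2b) and a secreted peptide (adma).

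Levels are given as scaled FPKM. FPKM relates fragments to transcript length and to the library's total, so levels may be compared between genes, and the scaling sets the libraries to a common median over genes above 1 FPKM in all of them. Mitochondrially encoded transcripts took 10.3% to 18.8% of summed FPKM in regenerating libraries and 21.8% to 41.9% in uninjured ones. The depth of each library is unknown, and errors are taken from the libraries of a group. The 10 cardiomyocyte markers were abundant in all libraries, with a summed level of 4204 to 8061 scaled FPKM in regenerating libraries and 6132 to 13218 in uninjured ones. The summed level of the 10 epicardial genes was 215 to 369 scaled FPKM in regenerating libraries and 45.4 to 92.2 in uninjured ones. In bulk libraries of this kind, fewer cells of a type and less RNA per cell cannot be told apart.

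Most of the epicardial genes were higher in regenerating libraries. Of the 9 that could be tested, 7 rose and none fell, while hyal2b and adma did not pass (limma, adjusted p below 0.05 over 13319 genes). Over all genes tested, 7.50% were called higher and 3.94% lower. With no adjustment, 9 members had a p below 0.05 in that test, and all 9 were higher, beside 16.6% of all genes tested higher and 10.1% lower by that rule. The groups did not overlap in 8 of the 10 genes in the upward direction and in 1, gpm6aa, in the downward direction. The authors' deposited table lists 8 of the 10 genes past an adjusted p of 0.05, 7 of them higher and 1 lower, beside 4.84% of its genes higher and 4.62% lower; hyal2b and tbx18 do not pass there. By position alone, 19.1% of all genes tested lay higher without overlap and 13.7% lower. All 9 exceeded 1 FPKM in at least 2 uninjured libraries. The median log2 change over them was 2.00, beside 0.05 over all genes tested.

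**Figure D1:**
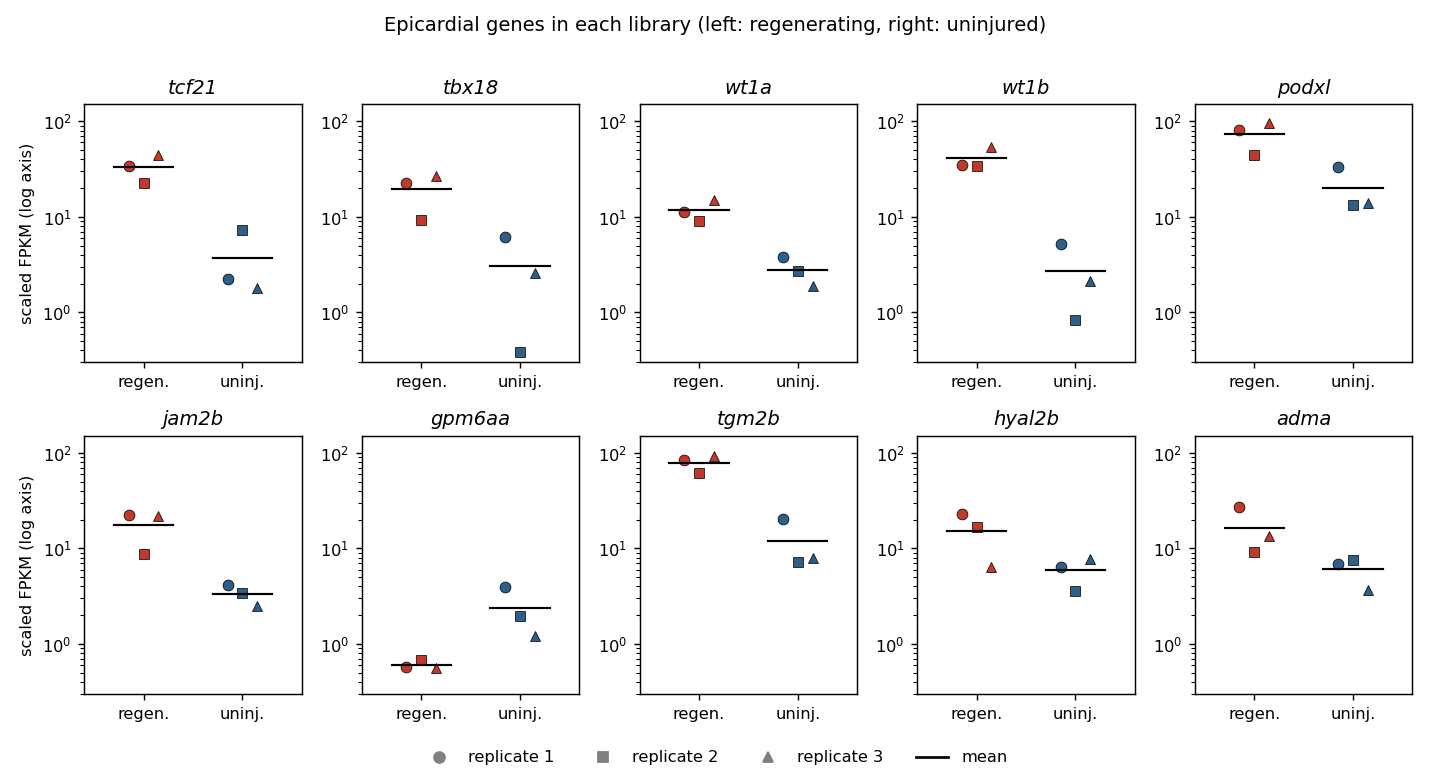
Level of each epicardial gene in scaled FPKM on a log axis, with 1 point per library (circles, squares and triangles for replicates 1, 2 and 3), regenerating libraries in red on the left, uninjured ones in blue on the right, and lines at the group means. The points of hyal2b overlap between groups, those of gpm6aa are lower in regenerating libraries, and those of the other 8 genes are higher there.

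Among the transcription factors, wt1b had the largest change. It and wt1a are duplicate counterparts of the mammalian Wilms tumour gene, which encodes a zinc finger factor needed for epicardial development in mice. The level of wt1b (ENSDARG00000007990) was 35.2, 34.2 and 53.3 scaled FPKM in regenerating replicates 1, 2 and 3, against 5.18, 0.828 and 2.14 in uninjured replicates 1, 2 and 3. All regenerating libraries lay far above all uninjured ones, and the uninjured values differed 6.25-fold among themselves. Its means were 40.9 ± 10.7 in regenerating and 2.72 ± 2.23 scaled FPKM in uninjured libraries (SD, n = 3 each), and the log2 change was 3.64 (SE 0.42, limma adjusted p = 0.00127). This change ranked 16 from the highest among the 13319 genes tested.

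Its duplicate wt1a (ENSDARG00000031420) measured 11.2, 9.06 and 15.03 scaled FPKM in regenerating libraries, against 3.80, 2.73 and 1.89 in uninjured ones. The groups were separate, with a smaller gap than for wt1b. The log2 change was 1.75 (SE 0.30, limma adjusted p = 0.00780). In regenerating libraries wt1b exceeded wt1a in each of the 3, by 1.71 ± 0.12 on the log2(scaled FPKM + 1) scale, whereas the difference in uninjured libraries was -0.18 ± 0.74 (SD, n = 3 each). The shift of 1.89 between groups in this difference reached p = 0.1 in a two-sided exact permutation test, which cannot give less with 3 libraries a group, and 0.125 after Benjamini-Hochberg adjustment of the exact p-values over the 5 pairs of related genes compared. As the genes are related in sequence, some short reads may have been assigned to either.

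The gene tcf21 (ENSDARG00000036869) encodes a basic helix-loop-helix factor that marks the epicardium and the fibroblasts derived from it. It stood at 33.8, 22.7 and 44.3 scaled FPKM in regenerating libraries, against 2.23, 7.21 and 1.81 in uninjured ones. Here uninjured replicate 2 was the highest of its group, while for tbx18 and wt1b the same library was the lowest. The means of tcf21 were 33.6 ± 10.8 in regenerating and 3.75 ± 3.01 scaled FPKM in uninjured libraries (SD, n = 3 each), and its log2 change was 2.99 (SE 0.42, limma adjusted p = 0.00292).

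The T-box factor gene tbx18 (ENSDARG00000036930) is another marker of the epicardium and, in mice, of its precursors. Its level was 22.3, 9.36 and 26.9 scaled FPKM in regenerating libraries, against 6.14, 0.384 and 2.59 in uninjured ones. The uninjured values spanned 16.0-fold, the widest range within a group among the 10 genes, and the groups came closest at 9.36 in regenerating replicate 2 and 6.14 in uninjured replicate 1. The log2 change was 2.52 (SE 0.57, limma adjusted p = 0.0223). The call was lost without regenerating replicate 1 (limma adjusted p = 0.0916), regenerating replicate 3 (limma adjusted p = 0.0708) or uninjured replicate 3 (limma adjusted p = 0.0516). In the authors' deposited table, tbx18 has an adjusted p of 0.105.

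**Figure D2:**
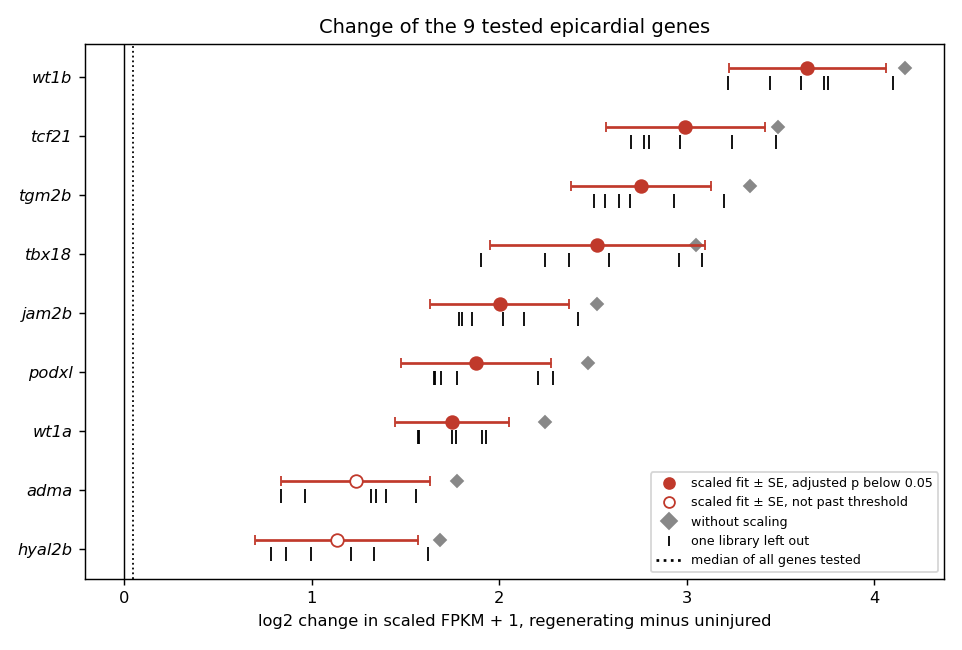
Log2 change (regenerating minus uninjured) of the 9 tested epicardial genes on the log2(scaled FPKM + 1) scale, as circles with bars of 1 SE, filled where the adjusted p was below 0.05. Diamonds give the change without scaling, ticks the change with 1 library left out, and the dotted line the median of all genes tested (0.05). The changes run from 1.13 for hyal2b to 3.64 for wt1b, and every tick lies above 0.

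Of the surface proteins, podocalyxin, encoded by podxl, is a sialomucin of apical membranes that is also made by endothelium and by kidney podocytes. Levels of podxl (ENSDARG00000031228) were 81.1, 44.0 and 96.5 scaled FPKM in regenerating libraries, against 33.1, 13.3 and 13.9 in uninjured ones. The lowest regenerating library and the highest uninjured one were close, and the rest were well apart. The log2 change was 1.88 (SE 0.40, limma adjusted p = 0.0172). It no longer passed without regenerating replicate 1 (limma adjusted p = 0.0772), regenerating replicate 3 (limma adjusted p = 0.0583) or uninjured replicate 3 (limma adjusted p = 0.0551).

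The junctional adhesion molecule gene jam2b (ENSDARG00000079071) encodes an immunoglobulin-type protein of cell contacts. It measured 22.3, 8.62 and 21.7 scaled FPKM in regenerating libraries, against 4.15, 3.38 and 2.503 in uninjured ones. All uninjured values were low and close together, and regenerating replicate 2 was the lowest of its group. The log2 change was 2.00 (SE 0.37, limma adjusted p = 0.0103), and without regenerating replicate 1 the limma adjusted p was 0.0552. The related gene jam2a, named after its values were seen, ran the other way, at 8.53, 8.36 and 7.82 scaled FPKM in regenerating libraries, against 11.9, 29.7 and 39.7 in uninjured ones. Relative to the median gene jam2a fell by 1.45 (SE 0.39, limma adjusted p = 0.0406), but without scaling it did not pass (limma adjusted p = 0.145). The authors' deposited table lists jam2a as lower, with an adjusted p of 0.0115. The difference of jam2b minus jam2a was 0.90 ± 0.74 in regenerating and -2.56 ± 1.13 in uninjured libraries (log2 scale, SD, n = 3 each). For that shift of 3.46 the exact permutation test again gave p = 0.1, or 0.125 adjusted over the 5 pairs.

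The exception among the 10 was gpm6aa (ENSDARG00000055455), which encodes a membrane glycoprotein of the proteolipid family, best known from neurons in mammals. Its level was 0.569, 0.686 and 0.563 scaled FPKM in regenerating libraries, against 3.91, 1.97 and 1.22 in uninjured ones. Every regenerating value lay below every uninjured one, and all were low. As gpm6aa exceeded 1 FPKM in only 2 libraries, it was not among the 13319 genes tested. In the fit without a filter its log2 change was -0.99 (limma adjusted p = 0.173), on a scale that compresses low genes. The authors' deposited table gives it a log2 fold change of -2.27 with an adjusted p of 0.000762. Its duplicate gpm6ab measured 5.21, 5.45 and 8.65 scaled FPKM in regenerating libraries, against 6.46, 3.98 and 4.35 in uninjured ones, and did not pass (log2 change 0.32, limma adjusted p = 0.534). Neural and Schwann cell markers summed to 6.91 to 9.22 scaled FPKM in regenerating libraries and 7.42 to 10.3 in uninjured ones, and the authors' mean normalised count for mbpa, the most abundant of them, is 0. Of the 3 that were tested elavl4 rose, at 3.93 ± 0.56 in regenerating and 0.688 ± 0.031 scaled FPKM in uninjured libraries (SD, n = 3 each; log2 change 1.54, SE 0.25, limma adjusted p = 0.00555), and it entered the test through the regenerating libraries alone. The markers elavl3, stmn2a and sox10, named after their values were seen, were too low to be tested. They lay lower without overlap in regenerating libraries, as did mbpa at its mean normalised count of 0 and 13.7% of all genes tested. That position therefore says little about genes this low. The authors' deposited table lists sox10 as lower, with a log2 fold change of -2.41, an adjusted p of 0.0176 and a mean normalised count of 13.6. In that table elavl3 and stmn2a do not pass. The marker gfap, also too low to be tested, overlapped between groups. The part of these neural and Schwann cell markers in the value of gpm6aa was not tested.

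Of the enzymes, transglutaminase 2, encoded by tgm2b, crosslinks proteins of the extracellular matrix. The gene tgm2b (ENSDARG00000074094) had the highest mean level of the set in regenerating libraries, at 84.2, 60.7 and 91.4 scaled FPKM, against 20.5, 7.23 and 7.94 in uninjured ones. The groups were far apart. The log2 change was 2.76 (SE 0.37, limma adjusted p = 0.00244). Another transglutaminase gene, tgm2l, stood at 9.50, 12.7 and 12.8 scaled FPKM in regenerating libraries, against 21.0, 52.6 and 69.0 in uninjured ones. It fell by 1.79 relative to the median gene (SE 0.40, limma adjusted p = 0.0202) and did not pass without scaling (limma adjusted p = 0.0607). The authors' deposited table lists tgm2l as lower, with an adjusted p of 3.47e-06.

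The hyaluronidase gene hyal2b (ENSDARG00000062997), whose mammalian counterpart cleaves hyaluronan at the cell surface, was the least separated member. It measured 22.7, 16.6 and 6.42 scaled FPKM in regenerating libraries, against 6.35, 3.55 and 7.75 in uninjured ones. Regenerating replicate 3 lay within the uninjured range. The log2 change of 1.13 (SE 0.44) did not pass (limma adjusted p = 0.129), but did without scaling (limma adjusted p = 0.0150) and without regenerating replicate 3 (limma adjusted p = 0.0362). Its relative hyal2a, named after its values were seen, measured 6.89, 8.94 and 3.75 in regenerating libraries, against 1.55, 0.879 and 3.42 scaled FPKM in uninjured ones (log2 change 1.38, limma adjusted p = 0.0522). Without scaling hyal2a passed (limma adjusted p = 0.00503), and its adjusted p in the authors' deposited table is 0.0435. The difference of hyal2b minus hyal2a shifted by -0.24 between groups on the log2 scale (p = 0.5 in the exact permutation test).

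Hyaluronan is made at the plasma membrane by hyaluronan synthases, and has1 changed more than any hyaluronidase tested here. The level of has1 (ENSDARG00000042983) was 171, 145 and 191 scaled FPKM in regenerating libraries, against 11.6, 18.2 and 16.6 in uninjured ones. The lowest regenerating library was several times the highest uninjured one, and the log2 change was 3.38 (SE 0.25, limma adjusted p = 0.000147). The synthase gene has2, named after its values were seen, did not pass (log2 change -0.92, limma adjusted p = 0.162). The authors' deposited table lists has2 as lower, with an adjusted p of 0.0195. A further synthase gene, has3, fell and is taken up below. The hyaluronan receptor gene hmmr, also named after its values were seen, rose by 1.06 (SE 0.21, limma adjusted p = 0.0137). It was low in both groups, at 1.59 ± 0.28 in regenerating and 0.235 ± 0.049 scaled FPKM in uninjured libraries (SD, n = 3 each). It has a role in mitotic spindles as well. The hyaluronan receptor genes cd44a and cd44b were too low to be tested and overlapped between groups.

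The peptide adrenomedullin acts on vessels and heart through a receptor formed by a calcitonin receptor-like protein and a RAMP protein. Zebrafish adma (ENSDARG00000015263) measured 26.9, 9.27 and 13.3 scaled FPKM in regenerating libraries, against 6.89, 7.54 and 3.67 in uninjured ones. Groups did not overlap, yet regenerating replicate 2 was close to uninjured replicate 2. The log2 change was 1.23 (SE 0.40, limma adjusted p = 0.0749), which did not pass, while without scaling it did (limma adjusted p = 0.0170). The authors' deposited table gives adma an adjusted p of 0.0498.

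The second adrenomedullin gene, admb (ENSDARG00000069027), was the more abundant of the pair in every library. It measured 35.4, 20.3 and 30.1 scaled FPKM in regenerating libraries, against 84.9, 59.1 and 67.4 in uninjured ones. Relative to the median gene admb fell by 1.29 (SE 0.27, limma adjusted p = 0.0169). Without scaling its change was -0.69 and did not pass (limma adjusted p = 0.153), while its adjusted p in the authors' deposited table is 4.92e-05. The difference of adma minus admb was -0.85 ± 0.41 in regenerating and -3.38 ± 0.53 in uninjured libraries (log2 scale, SD, n = 3 each), with p = 0.1 in the same exact permutation test. Of the receptor genes, calcrlb and ramp2 rose. Levels of calcrlb were 16.4, 12.4 and 10.95 scaled FPKM in regenerating libraries, against 1.82, 1.70 and 1.71 in uninjured ones (log2 change 2.36, SE 0.26, limma adjusted p = 0.00116). For ramp2 they were 29.5, 17.6 and 20.1 in regenerating libraries, against 7.74, 6.10 and 4.10 scaled FPKM in uninjured ones (log2 change 1.75, SE 0.30, limma adjusted p = 0.00761). The related receptor gene calcrla, named after its values were seen, did not pass (log2 change 0.04, limma adjusted p = 0.965).

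**Figure D3:**
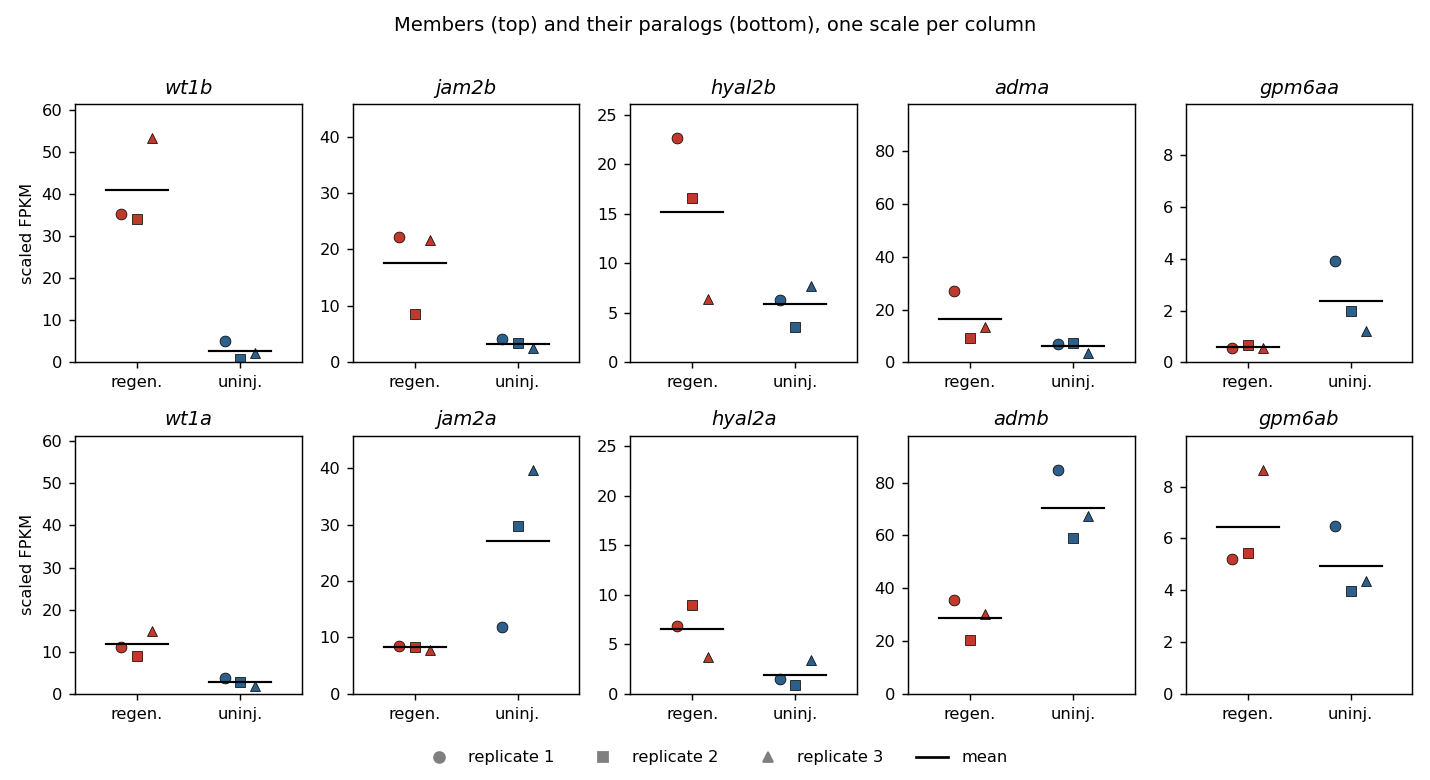
Scaled FPKM (linear axis from 0, shared within a column) of 5 epicardial genes in the top row and their relatives in the bottom row, 1 point per library, regenerating in red on the left and uninjured in blue on the right, with lines at group means. In regenerating libraries jam2b and adma are higher while jam2a and admb are lower, and wt1b exceeds wt1a.

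The whole list of 35 relatives and partners was fixed for this purpose with earlier results of these data known. From it, 31 genes were matched to the table and 19 were tested. Of these, 5 rose, 4 fell and 10 did not pass, beside 7.50% of all genes tested higher and 3.94% lower. Their median log2 change was 0.32, beside 0.05 over all genes tested. The risers were has1, calcrlb, ramp2, hmmr and gpm6bb, a further relative of gpm6aa that was named after its values were seen and rose by 1.53 (SE 0.33, limma adjusted p = 0.0183). The genes that fell were admb, tgm2l, jam2a and has3. The last, has3, was named after its values were seen and measured 1.25 ± 0.16 in regenerating and 4.55 ± 2.26 scaled FPKM in uninjured libraries (SD, n = 3 each; limma adjusted p = 0.0469). Without scaling 8 of them passed as higher and 0 as lower (limma; 23.7% of all genes were called higher and 1.52% lower in that fit). The transglutaminase gene tgm2a has a mean normalised count of 0 in the authors' deposited table, so it was not set beside tgm2b.

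Levels of the epicardial genes were ordered differently in the groups. In regenerating libraries the means ran from tgm2b (78.8 scaled FPKM) and podxl (73.9) through wt1b (40.9), tcf21 (33.6), tbx18 (19.5), jam2b (17.5), adma (16.5), hyal2b (15.2) and wt1a (11.8) to gpm6aa (0.606). In uninjured libraries podxl (20.1) and tgm2b (11.9) led, and wt1b (2.72) was second to last before gpm6aa (2.37). The ranges over libraries overlapped for 8 of 9 neighbouring pairs in the regenerating order and for all 9 in the uninjured order. The exception was gpm6aa below wt1a in regenerating libraries. All 60 values of the 10 genes were more than 3 times the floor seen at the same transcript length in genes whose mean normalised count is 0. That floor is a median over such genes, and some lie well above it. The gene mbpa, with a mean normalised count of 0, lay at 1.65 to 3.28 scaled FPKM beside a floor of at most 0.250. Clearing the floor alone therefore does not show that a gene as low as gpm6aa was detected. Its mean normalised count in the authors' deposited table is, however, 41.8.

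Libraries of a group also differed among themselves. Regenerating replicate 2 was the lowest of its group for 8 of the 10 genes. It held that place for 36.6% of all genes tested and for 44.4% of genes called higher. Uninjured replicate 1 was the highest of its group for 7 of the 10. It held that place for 35.2% of all genes tested and for 42.7% of genes called higher. Of the 7 genes that rose, 6 were highest in regenerating replicate 3, and jam2b in replicate 1. Regenerating replicate 3 was the highest of its group for 31.1% of all genes tested and for 32.1% of genes called higher. Without regenerating replicate 1, 4 members passed (tcf21, wt1a, wt1b and tgm2b). These 4 genes passed in all 15 fits that were run.

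**Figure D4:**
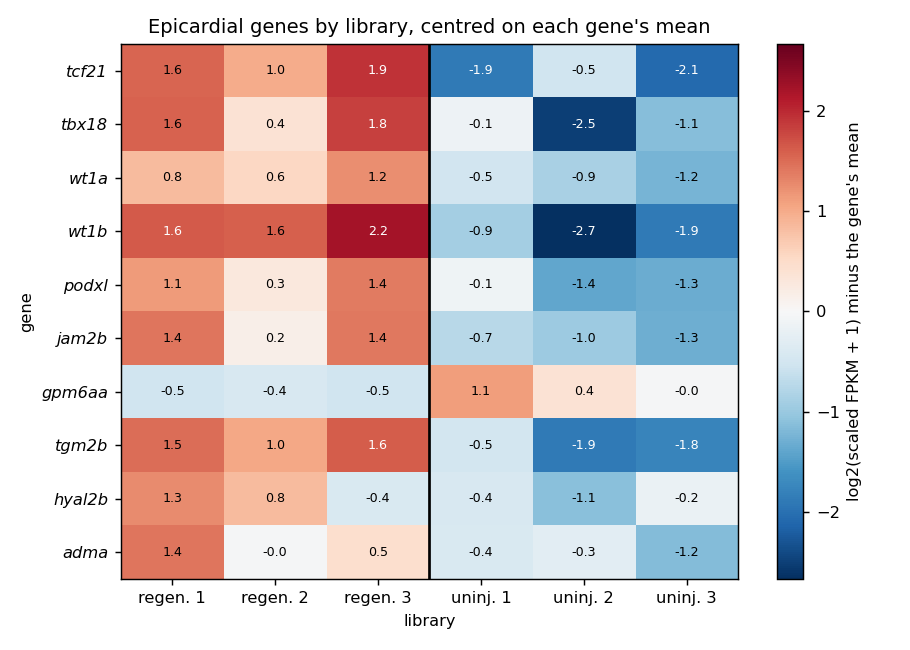
Heat map of log2(scaled FPKM + 1) of the 10 epicardial genes (rows) in the 6 libraries (columns, regenerating left of the line), each minus the gene's mean over libraries, red above and blue below it. The row of gpm6aa runs opposite to the others between groups, and in uninjured replicate 2 tbx18 and wt1b are at their lowest while tcf21 is not.

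Other genes known from epicardium or mesothelium were mostly higher too, though many did not pass. Like the other lists, this list was chosen with earlier results of these data known, so its counts are not independent support. Of 32 such genes listed, 27 were matched and 25 tested, of which 13 rose, none fell and 12 did not pass. The mesothelial genes lrrn4, msln, mslnb, upk1b and upk3l were not matched. Of the matched ones, upk3b has a mean normalised count of 0, and mslna overlapped between groups and was too low to be tested. Over all genes tested, 7.50% were called higher and 3.94% lower. The median log2 change of the 25 was 1.18, beside 0.05 over all genes tested. Before adjustment, limma put 14 of them higher and 2 lower at a p below 0.05, beside 16.6% and 10.1% of all genes tested. Retinaldehyde dehydrogenase, encoded by aldh1a2, makes retinoic acid and is induced in epicardium after injury in zebrafish. Its level was 85.6, 74.9 and 81.7 scaled FPKM in regenerating libraries, against 12.4, 7.79 and 5.66 in uninjured ones (log2 change 3.15, SE 0.29, limma adjusted p = 0.000490). The retinol metabolism gene dhrs3a rose as well. The simple epithelial keratin genes krt8 and krt18a.1 (krt18 in the table) rose by 1.70 (SE 0.24, limma adjusted p = 0.00289) and 2.82 (SE 0.22, limma adjusted p = 0.000181). The glutathione transferase gene gstm.3 measured 582, 268 and 713 scaled FPKM in regenerating libraries, against 60.8, 35.0 and 31.2 in uninjured ones. Its lowest regenerating value was in replicate 2, as for 8 of the 10 members.

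Further risers were bnc1, bnc2, sema3d, c6, krt94, cxcl12a, cdh11, itga4 and dhrs3a, with log2 changes from 1.18 to 2.88. Of these, bnc1 exceeded 1 FPKM in no uninjured library and entered the test through the regenerating ones, as did hmmr above. The abundant keratin gene krt15 did not pass (log2 change 0.66, limma adjusted p = 0.266). Nor did cav1, gata5, hapln1a, meis1b, mmel1, nrp1a, ptx3a, sema3e and sema3fb, named after their values were seen. Of these, hapln1a, mmel1 and ptx3a had negative log2 changes and the rest positive ones. By position alone, 14 of the 25 tested genes of this list lay higher without overlap and 2 lower. Over all genes tested, the shares were 19.1% higher and 13.7% lower. The heart and mesothelium factor genes gata6 and hand2, named after their values were seen, lay lower without overlap at 12.2 ± 3.06 and 31.8 ± 4.18 scaled FPKM in regenerating libraries, against 23.0 ± 5.83 and 55.7 ± 9.87 in uninjured ones (SD, n = 3 each). Neither passed (limma adjusted p = 0.0901 for gata6 and 0.0640 for hand2), whereas the authors' deposited table lists both as lower, with an adjusted p of 0.0164 for gata6 and 0.00888 for hand2.

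Genes of the transition of epithelium to mesenchyme, through which epicardial cells are known to become fibroblasts and mural cells, rose in part. Of 30 listed, 29 were tested, 9 rose, 1 fell and 19 did not pass, beside 7.50% of all genes tested higher and 3.94% lower. Their median log2 change was 0.63, beside 0.05 over all genes tested. Without scaling 15 rose and 1 fell, beside 23.7% of all genes higher and 1.52% lower in that fit. The matrix gene fn1a rose by 3.64 (SE 0.21, limma adjusted p = 4.59e-05), postnb by 3.50 (SE 0.27, limma adjusted p = 0.000185) and col5a1 by 2.95 (SE 0.27, limma adjusted p = 0.000530). Among the transcription factors of this list, chosen here after their values were seen, snai2 and prrx1a rose. The genes snai1a, snai1b, twist1a, twist1b, zeb1a, zeb1b, zeb2a, zeb2b, prrx1b, foxc1a and foxc1b did not pass. The factor gene twist2 was too low to be tested, at 1.79 ± 1.51 in regenerating and 0.211 ± 0.106 scaled FPKM in uninjured libraries (SD, n = 3 each). The authors' deposited table lists twist2 as higher, with an adjusted p of 0.0413 at a mean normalised count of 6.49. The epithelial cadherin gene cdh1 fell to 5.10, 2.27 and 2.04 scaled FPKM in regenerating libraries, against 12.7, 8.04 and 18.6 in uninjured ones (log2 change -1.77, SE 0.38, limma adjusted p = 0.0171). With it fell epcam, krt5 and cldnb, so that 4 of the 5 genes on the epithelium list fell, and krt4 did not pass.

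Markers of other cell types did not all move in the same direction. Fibroblast markers rose in 6 of 8, beside 7.50% of all genes tested called higher and 3.94% lower. They include tcf21 itself, and col1a1a, col5a1, postnb and pdgfra are also among the mesenchymal transition genes above. The summed level of the fibroblast markers was 1142 to 1239 scaled FPKM in regenerating libraries and 164 to 304 in uninjured ones. Their most abundant genes were col1a1a, at 399 ± 54.3 in regenerating and 49.8 ± 35.0 scaled FPKM in uninjured libraries, and dcn, at 182 ± 20.3 and 99.0 ± 43.9 in the same groups (SD, n = 3 each). Of 10 endothelial and endocardial markers 4 rose and 6 did not pass, with sums of 121 to 215 in regenerating and 109 to 145 scaled FPKM in uninjured libraries. Smooth muscle and pericyte markers split, as 3 of 7 rose (rgs5b, tagln and pdgfrb) and 3 fell (acta2, myh11a and cspg4), of which 1 passed without scaling. Of 10 cardiomyocyte markers 2 fell (ttn.2 and mybpc3) and 8 did not pass, and without scaling 1 fell. The most abundant of these, myl7, measured 1865 ± 946 in regenerating and 3217 ± 1130 scaled FPKM in uninjured libraries (SD, n = 3 each; limma adjusted p = 0.226).

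Podocyte markers bear on podxl and wt1a, which podocytes also express. The podocyte-defining nphs1 stayed between 0.0944 and 0.198 scaled FPKM in all libraries. The 3 podocyte markers that rose were podxl and wt1a, which are members themselves, and mafba. Over all genes tested, 7.50% were called higher and 3.94% lower. Macrophage and leukocyte markers summed to 10.2 to 21.6 scaled FPKM in regenerating libraries and 10.03 to 22.6 in uninjured ones. None of the 4 tested passed in limma. Before adjustment, 1 was higher and 1 lower at a p below 0.05 in limma, beside 16.6% and 10.1% of all genes tested. Erythrocyte markers summed to 319 to 939 in regenerating libraries and 12.8 to 408 scaled FPKM in uninjured ones. Of these, 1 of 5, alas2, rose, beside 7.50% of all genes tested called higher. The gene alas2 exceeded 1 FPKM in no uninjured library and so entered the test through the regenerating ones. The part of these cell types in the values of the epicardial genes was not tested.

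**Figure D5:**
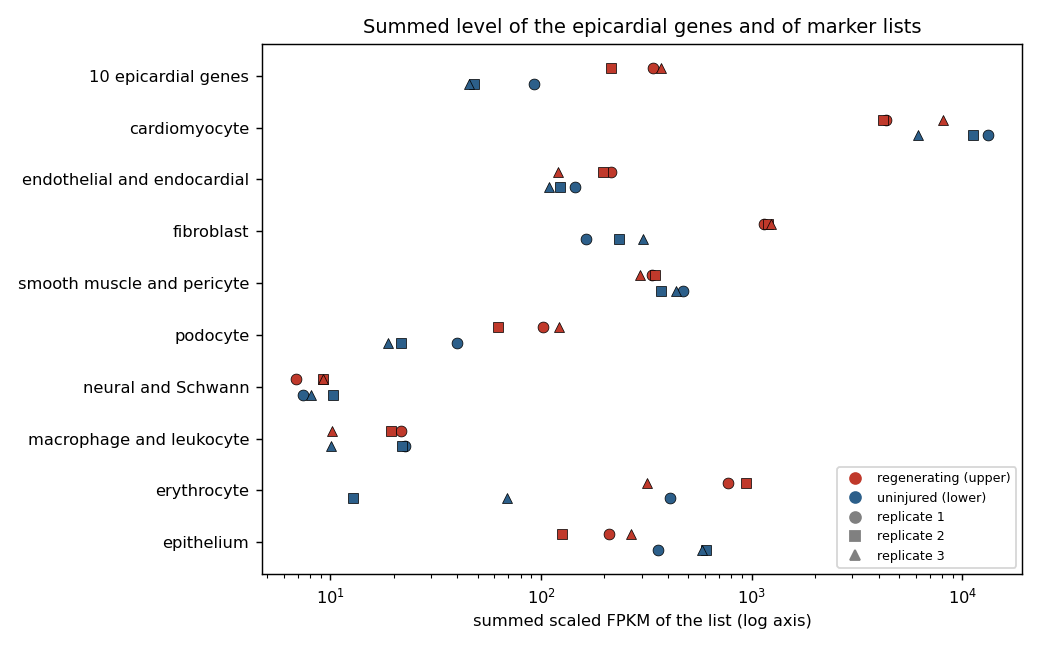
Summed scaled FPKM (log axis) of the 10 epicardial genes and of the marker lists of cell types, 1 point per library, regenerating in red above and uninjured in blue below. Sums of the epicardial genes, fibroblast markers and podocyte markers lie higher in all 3 regenerating libraries. The lists share genes, as podxl and wt1a are also podocyte markers and tcf21 is also a fibroblast marker. In regenerating libraries podxl makes up 73.9 of the mean podocyte sum of 95.7 scaled FPKM, and in uninjured ones 20.1 of 26.8. Sums of the smooth muscle and epithelium lists lie lower, and the cardiomyocyte sums overlap between groups.

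The genes with profiles most like those of 3 members were found by Pearson correlation of log2(scaled FPKM + 1) over the 6 libraries, among 5085 other named genes averaging at least 5 scaled FPKM. For tcf21 they were mafba (0.994), tmsb2 (0.992) and pla2g4aa (0.992). The gene mafba encodes a bZIP factor of the Maf family and tmsb2 a thymosin that binds actin. Nearest to tbx18 were c1qtnf5 (0.993), the claudin gene cldnc (0.991) and tmem167a (0.990). For wt1b they were the laminin chain gene lama4 (0.998), the tight junction scaffold gene tjp1a (0.997) and glipr2l (0.997). As the groups stand apart, such values mostly describe the difference between them, and 93, 89 and 220 genes exceeded 0.95 for tcf21, tbx18 and wt1b.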

How the data were processed

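RNA was measured in 3 regenerating and 3 uninjured libraries. The authors deposited log2 FPKM values, per the file headers, with their own log2 fold change, p-value, adjusted p-value and mean normalised count, a signal averaged over libraries. STAR 2.5.3a, RSEM 1.3.0, DESeq2 (no version given), R 3.3.3 and the build GRCz10 are named in the submitters' processing notes. Coordinates are left out, as the gene tables used here belong to a different build.

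The log2 was undone and an offset of 0.1 subtracted, since the lowest value was 0.1 and 100.0% fell on multiples of 0.01 FPKM with a tolerance of 0.001. FPKM was rounded to that grid and divided by a median-ratio factor from 8924 genes that exceeded 1 FPKM in every library. Genes above 1 FPKM in at least 3 libraries (13319 of 25089) were fitted as log2(scaled FPKM + 1) using limma 3.58.1 (R 4.3.3; trend on intensity, a single term for group), two-sided, Benjamini-Hochberg over all genes tested, threshold 0.05. Fold changes on this scale understate those of low genes. The fit was tested on simulated data. No count test was run because the files hold no counts.

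Members and lists were chosen with earlier results of these data known. The genes named are all members, the 3 smallest adjusted p among higher and the 2 among lower genes of each list, the most abundant genes and the 3 nearest profiles. Alternatives were other scalings, pseudocounts of 0.1 and 0.5, other filters, each library left out (with scaling and genes as in the full fit) and a replicate block. For list symbols with more than 1 row, the most abundant row counted. 1 listed marker gene is not reported here.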

Additional observations from a re-analysis of the deposited data

How the results depend on the processing

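The direction of all 9 tested members was the same in the 15 fits run. Without scaling the median log2 change of the members was 2.52 and that of all genes 0.51, and 3161 genes were called higher and 203 lower, with 8 higher and 0 lower relatives and 15 higher mesenchymal transition genes. Trimmed-mean scaling gave 1531 higher and 328 lower genes and 1 lower relative. Without a filter on low values 479 genes were higher and 202 lower, with 0 lower relatives and 0 lower mesenchymal transition genes, and tbx18 and podxl no longer passed. With 1 library left out, the calls over all genes ranged from 367 to 1031 higher and 145 to 568 lower. Over the same fits 4 to 7 members were higher, and the median member change was 1.78 to 2.42. Relatives ranged from 3 to 6 higher and 0 to 5 lower, mesenchymal transition genes from 6 to 9 higher and 0 to 2 lower, and epicardial partner genes from 11 to 13 higher and 0 to 2 lower. The cause of these changes was not tested. Deviations of same-numbered libraries correlated at -0.01, -0.005 and -0.06 over genes, so no shared shift by replicate number was seen. These values cannot show whether the libraries were paired when they were made. With a replicate block 917 genes were higher and 485 lower, and 7 members were higher. Low genes such as gpm6aa are limited by an unknown depth.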
